A study of Mus musculus with 4 samples.

Results

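Interferon regulatory factors (Irf proteins) are transcription factors that share an amino-terminal DNA-binding domain with conserved tryptophans and bind GAAA repeats. The genes described here are the 8 rows of the deposited count table named Irf1, Irf2, Irf3, Irf4, Irf5, Irf7, Irf8 and Irf9, chosen by symbol from 24421 genes. They were measured by bulk RNA sequencing of LSK cells (lineage-negative, Sca1-positive, Kit-positive), the fraction of mouse bone marrow that holds the stem cells and earliest progenitors of blood. All animals were 13 to 15 months old. There were 2 libraries from wild-type (WT) mice and 2 from p53R248W/+ mice, heterozygous for an amino acid exchange in the part of p53 that contacts DNA. The latter are called mutant libraries below. The labels name no promoter, Cre driver, treatment or shared modification, and do not say whether separate animals gave the libraries of a genotype, so the spread behind each p-value is that between libraries and may be technical.

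Irf proteins sit at both ends of interferon signalling. Nucleic acid sensors activate the kinases Tbk1 and Ikbke, which phosphorylate Irf3 and Irf7 and so switch on interferon genes, while Irf9 acts downstream of the interferon receptor, in the complex ISGF3. Irf1 activates and Irf2 mostly represses through the same DNA elements, and Irf2 is known in mice to protect stem cells from exhaustion by type I interferon. Irf8 directs progenitors towards monocytes and dendritic cells, and Irf4 acts in B cells, plasma cells and dendritic cells. Irf5 and Irf9 have been described among the genes that p53 can activate.

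Because several Irf genes are themselves controlled by interferon, the promoter windows of RefSeq (GRCm38.p6, 250 bases before to 50 bases after each start) were searched on both strands. The letters searched for an interferon-stimulated response element (ISRE) were a pair of GAAA half-sites with any 2 bases between them, and those for a composite of an Ets and an Irf site were GGAA, any 2 bases and GAAA. A Stat dimer site (GAS) was searched as TTCNNNGAA. All 8 genes had at least 1 window, 11 in all. The 4 stretches below are shown because they hold the Irf1, Irf2 and Irf8 matches to the ISRE or GAS letters, with the letters of the match named on each line in capitals, 5′ to 3′ on the plus strand, which is the strand of all 3 genes.
Irf1, GAS, chr11:53769908-53769948: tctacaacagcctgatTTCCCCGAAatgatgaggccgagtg
Irf2, ISRE, chr8:46739495-46739529: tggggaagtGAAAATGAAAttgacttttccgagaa
Irf8, GAS, chr8:120736171-120736211: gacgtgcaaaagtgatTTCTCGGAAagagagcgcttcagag
Irf8, GAS, chr8:120736189-120736229: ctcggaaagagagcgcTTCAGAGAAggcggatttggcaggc
The Irf1 match ran from -90 to -82 relative to the start, and the Irf8 matches from -171 to -163 and from -153 to -145. Irf2 held the ISRE from -241 to -232, an overlapping Ets-Irf composite from -247 to -238 and a GAS match from -224 to -216, the last at the end of the printed stretch in lower case. Of 32851 promoter windows of the same length, 3.44% held the ISRE letters, 8.3% the GAS letters and 2.72% the composite. The windows of Irf3, Irf4, Irf5, Irf7 and Irf9 held none of these 3 motifs. No Irf window held a p53 half-site, a motif found in 8.36% of all windows. An NF-kB site, held by 8.46% of all windows, was matched in Irf1 from -13 to -4 and in Irf2 from -17 to -8, and in no window of the other Irf genes. These matches describe letters in a window and were not tested as binding sites.

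The libraries held 12111126 to 14820759 counted reads, and no Irf gene shared exon bases with another gene of the table. Markers of LSK cells were present, with Kit at 911 to 1182 CPM (reads after scaling every library to 1 total) and Ly6a, which encodes Sca1, at 40.2 to 82.9 CPM. Among defining genes of mature cells, Pax5 of B cells, Cd3g of T cells and the macrophage genes Fcgr1 and Ms4a7 had 0 counts in all 4 libraries. Other markers of mature cells were present. The 9 T and NK cell markers summed to 69.6 and 83.4 CPM for WT, and to 82.6 and 67.9 CPM for p53R248W/+, most of it Klrb1c (43.6 to 58.1 CPM) and Nkg7 (12.4 to 32.0 CPM). The 8 granulocyte markers summed to 1392 and 380 CPM against 714 and 611 CPM, most of it Mpo, a gene of granulocyte progenitors, at 314 to 1273 CPM. Trp53 ranged from 302 to 362 CPM in the WT and from 245 to 332 CPM in the mutant libraries, and gene counts do not tell its alleles apart. The libraries did not group by genotype, since replicates 2 of both genotypes were closest to each other (r = 0.928 across genes, which are not independent replicates).

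All 8 Irf genes were detected in every library, and by mean level they fell into an abundant and a less abundant group. Levels of different genes were compared as RPKM, which divides CPM by exon length in kilobases. Irf2, Irf9, Irf1 and Irf3 had mean levels of 31.1, 27.8, 24.6 and 21.2 RPKM, followed by Irf8 at 8.59, Irf7 at 7.46, Irf4 at 6.37 and Irf5 at 2.38 RPKM. The gap between Irf3, whose lowest library was at 14.9 RPKM, and Irf8, whose highest was at 11.0 RPKM, was the only place in this order where the ranges of neighbours stayed apart. Every other pair of neighbours overlapped in range. In p53R248W/+ replicate 1, however, Irf4 at 14.3 RPKM and Irf7 at 13.0 RPKM came close to Irf3 at 14.9 RPKM. The abundant group held the repressor Irf2, the ISGF3 subunit Irf9, the activator Irf1 and the sensor-activated Irf3. Lower by mean were the lineage factors Irf8 and Irf4, Irf5 of Toll-like receptor signalling, and the interferon-induced Irf7, which sensors also activate. Irf2 stood at the 82.2 percentile and Irf5 at the 19.8 percentile of mean RPKM among 13296 genes that passed the filter on low counts, which all 8 Irf genes did.

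**Figure D1:**
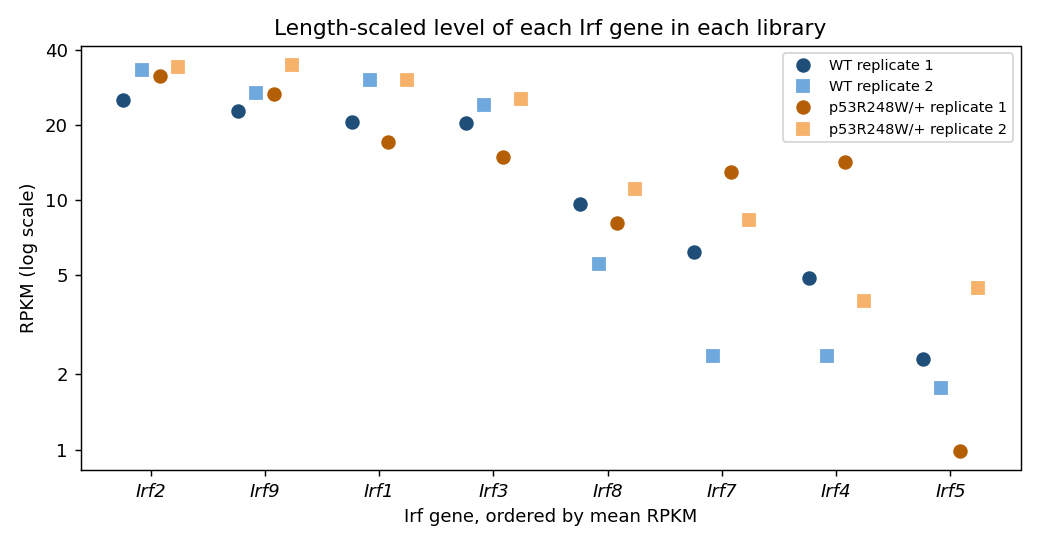
RPKM (log axis) of each Irf gene in each of the 4 libraries, with genes ordered by mean RPKM and colours and shapes marking the libraries. Irf2, Irf9, Irf1 and Irf3 lie at 14.9 RPKM or above in every library, and Irf4, Irf7 and Irf5 spread most widely. Irf4 reaches 14.3 RPKM in p53R248W/+ replicate 1.

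No Irf gene passed the test between genotypes. Of the 8 genes, 0 were called higher and 0 lower at an adjusted p of 0.05 (edgeR quasi-likelihood test, Benjamini-Hochberg adjustment over all genes), against 0% of the 13296 genes tested in either direction. The smallest adjusted p of any gene tested was 0.824 (edgeR quasi-likelihood test). Several genes named below share this value although their unadjusted p differ. DESeq2 called 6 genes in all (0.0451% of those tested) and no Irf gene, and limma-voom called 0. At an unadjusted p under 0.05 there were 2 Irf genes, Irf4 and Irf7, where 5.87% of all genes tested lay at that level. The log2 fold change of p53R248W/+ over WT was positive for 6 of 8 Irf genes, with a median of 0.31, and positive for 50% of all genes, with a median of -8.8e-05. Of the 8, 1 gene (12.5%), Irf7, had libraries that did not overlap between genotypes, where 33.6% of all genes tested did. In bulk samples, more cells of a type and more RNA per cell cannot be told apart. The count of positive fold changes was 8 without p53R248W/+ replicate 1 and 5 without WT replicate 1 or p53R248W/+ replicate 2.

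**Figure D2:**
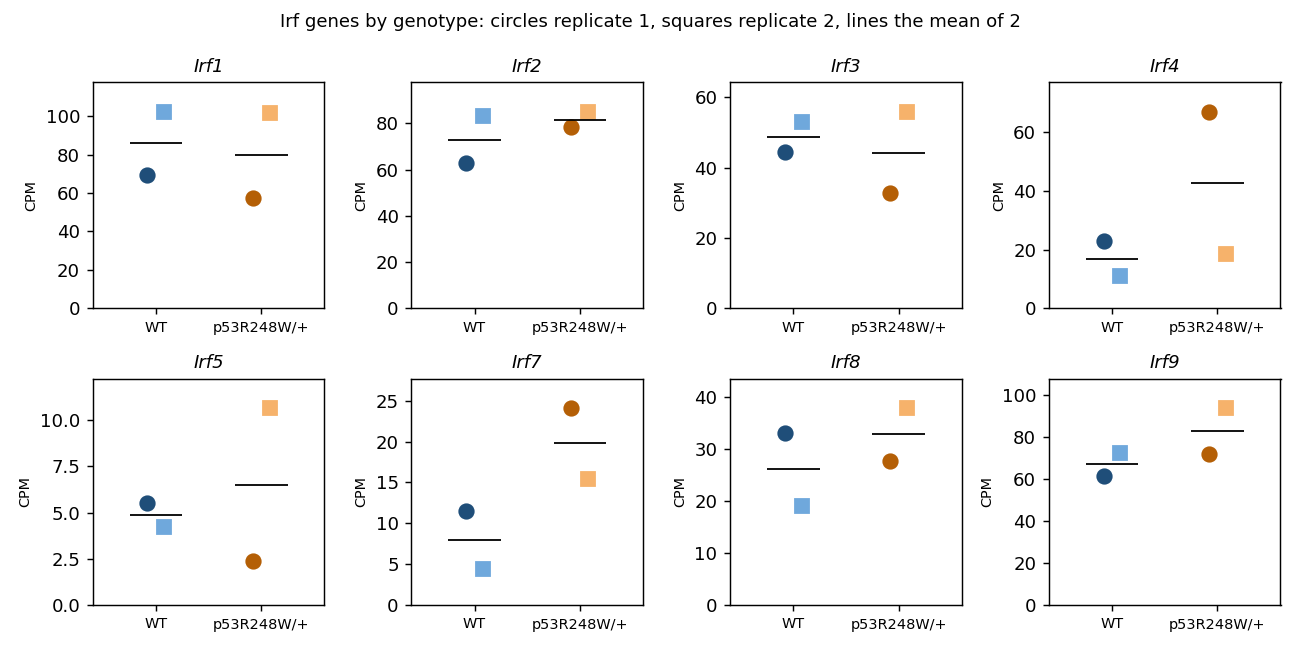
CPM (linear axes starting at 0) of the 8 Irf genes by genotype, with 1 point per library, circles for replicate 1, squares for replicate 2 and lines for the mean of 2. Irf7 is the only gene whose p53R248W/+ points, at 15.5 and 24.1 CPM, both lie above its WT points, at 4.42 and 11.5 CPM.

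Irf7, the factor that amplifies the type I interferon response, was higher in both p53R248W/+ libraries. It lies on mm10 chromosome 7, 141263183 to 141266424 on the minus strand, in 10 exon blocks. Replicates 1 and 2 gave 11.5 and 4.42 CPM for WT, and 24.1 and 15.5 CPM for p53R248W/+. Both mutant libraries were above both WT libraries, although the WT libraries themselves differed 2.6-fold. On the log2 scale the fold change, p53R248W/+ over WT, was 1.33 ± 0.61 (SE; n = 2 a genotype), with a 95% interval from 0.05 to 2.62, an unadjusted p of 0.0423 and an adjusted p of 0.824 (edgeR quasi-likelihood test). Leaving out WT replicate 1 gave 2.18 and leaving out WT replicate 2 gave 0.81. The value was 0.95 if p53R248W/+ replicate 1 was left out and 1.59 if replicate 2 was, so it stayed positive and moved with single libraries.

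Irf4, a factor of B cells, plasma cells and dendritic cells, had its high value in a single library. It lies on chromosome 13, 30749258 to 30766927, plus strand, in 9 exon blocks. The WT libraries gave 22.9 and 11.1 CPM, and the mutant libraries 66.9 and 18.5 CPM. Only p53R248W/+ replicate 1 was above both WT libraries, and p53R248W/+ replicate 2 lay between them. The mutant libraries differed 3.62-fold, and the highest library exceeded the lowest 6.04-fold, a range that 3.74% of the 10717 tested genes with a mean of at least 5 CPM matched or passed. The log2 fold change was 1.38 ± 0.55 (SE), with an unadjusted p of 0.0213 and an adjusted p of 0.824 (edgeR quasi-likelihood test). It was 0.12 without p53R248W/+ replicate 1, and 0.95 when WT replicate 2 was left out. Leaving out WT replicate 1 gave 1.99, and leaving out the other mutant library gave 1.98.

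In sum, the B cell and plasma cell markers were also highest in p53R248W/+ replicate 1. Summed over 12 genes they gave 77.8 and 70.1 CPM in the WT libraries, 137 CPM in p53R248W/+ replicate 1 and 74.0 CPM in replicate 2. Positive fold changes were found for 6 of 7 tested members, and the median was 1.27 on the log2 scale. Sdc1, named after its values were seen, was highest in WT replicate 2 at 13.3 CPM, against 7.35 CPM in p53R248W/+ replicate 1. Jchain, the antibody joining chain, was the most abundant at 42.6 to 78.4 CPM, while Pax5 was at 0. The part of these markers in the Irf4 value was not tested.

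Irf8, which like Irf4 acts in dendritic and B cell development, showed a different pattern. It lies on chromosome 8, 120736358 to 120756692, plus strand, in 10 exon blocks, and gave 33.2 and 19.1 CPM in the WT libraries against 27.8 and 37.9 CPM in the mutant ones. The genotypes overlapped, and the log2 fold change of 0.31 ± 0.43 (SE) had a 95% interval from -0.59 to 1.22 and turned to -0.02 without WT replicate 2. The RPKM of Irf8 was 1.98 and 2.35 times that of Irf4 in the WT libraries and 2.8 times in p53R248W/+ replicate 2, but 0.567 times in p53R248W/+ replicate 1. Irf4 thus exceeded Irf8 in that library alone.

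Irf5, which acts with Myd88 below Toll-like receptors in monocytes and macrophages, was the least abundant member. It lies on chromosome 6, 29526625 to 29537320, plus strand, in 10 exon blocks. Its counts were 79 and 60 in WT and 35 and 129 in p53R248W/+, which is 5.51 and 4.21 CPM against 2.36 and 10.7 CPM. The 2 mutant libraries held both the lowest and the highest value, a 4.51-fold difference that enclosed the WT libraries. The log2 fold change was 0.33 ± 0.86 (SE), with a 95% interval from -1.48 to 2.14, and it turned to -1.04 when p53R248W/+ replicate 2 was left out and was 1.13 when replicate 1 was. Cd68, a macrophage marker of the monocyte list, was likewise lowest in p53R248W/+ replicate 1 at 7.42 CPM and highest in p53R248W/+ replicate 2 at 49.6 CPM, while the WT libraries gave 33.5 and 26.4 CPM. It was chosen after its values were seen, and other genes of that list were highest in p53R248W/+ replicate 1, among them Csf1r at 23.9 against 9.33 CPM in replicate 2, Ly6c2 at 45.1 against 18.7 CPM and Adgre1 at 5.80 against 0.165 CPM. The 11 monocyte and macrophage markers summed to 110 and 67.5 CPM for WT, and to 98.9 and 113 CPM for p53R248W/+, with 2 of them at 0 throughout, and their part in the Irf5 value was not tested.

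Irf1 and Irf2, the activator and the repressor that compete for one element, overlapped between genotypes. Irf1 lies on chromosome 11, 53770014 to 53778374, plus strand, in 12 exon blocks, with 69.4 and 102 CPM in the WT and 57.5 and 102 CPM in the mutant libraries. Both replicates 2 were high and both replicates 1 were low, and the log2 fold change was -0.13 ± 0.31 (SE, 95% interval -0.78 to 0.53). Irf2 lies on chromosome 8, 46739745 to 46847458, plus strand, in 9 exon blocks, with 62.7 and 83.0 CPM in the WT and 78.3 and 85.0 CPM in the mutant libraries. It was the steadiest member, with a highest library 1.36 times the lowest, and its log2 fold change was 0.16 ± 0.28 (SE, 95% interval -0.42 to 0.75). The RPKM of Irf2 was 1.22 and 1.1 times that of Irf1 in WT and 1.84 and 1.13 times in p53R248W/+, above 1 in all 4 libraries.

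Irf3 and Irf9, the constitutive factor of interferon induction and the DNA-binding subunit of ISGF3, also overlapped between genotypes. Irf3 lies on chromosome 7, 44997648 to 45002848, plus strand, in 8 exon blocks, with 44.5 and 52.9 CPM in the WT and 32.6 and 55.8 CPM in the mutant libraries. Its log2 fold change was -0.16 ± 0.36 (SE, 95% interval -0.92 to 0.59), and the lowest and the highest library were both mutant. Irf9 lies on chromosome 14, 55603985 to 55610030, plus strand, in 11 exon blocks, with 61.4 and 72.4 CPM in the WT and 72.0 and 93.5 CPM in the mutant libraries. Its mutant libraries averaged 82.7 ± 15.2 CPM against 66.9 ± 7.79 CPM in WT (SD, n = 2), and p53R248W/+ replicate 1 fell just under WT replicate 2. The log2 fold change was 0.30 ± 0.28 (SE, 95% interval -0.30 to 0.89). The adjusted p of the 6 members other than Irf4 and Irf7 ran from 0.9 to 0.97 (edgeR quasi-likelihood test).

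**Figure D3:**
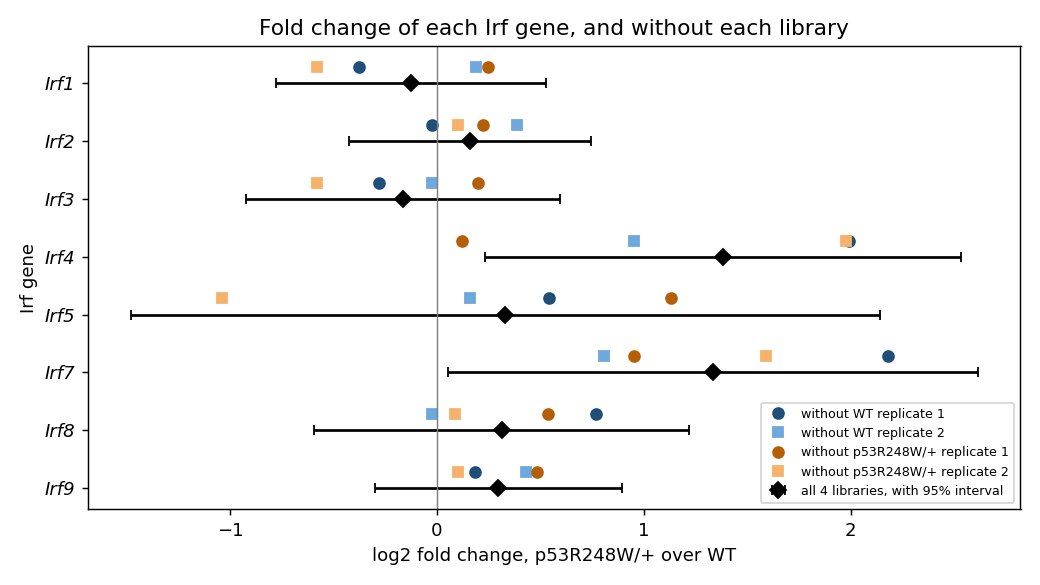
Log2 fold change of p53R248W/+ over WT for each Irf gene (diamonds, with 95% intervals) and the same value with each library left out (coloured points above). Irf4 drops to 0.12 without p53R248W/+ replicate 1, Irf5 runs from -1.04 to 1.13, and Irf7 stays between 0.81 and 2.18.

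Across the family, p53R248W/+ replicate 2 held the highest value of 5 members and the lowest of 0, and p53R248W/+ replicate 1 held the highest of 2, Irf4 and Irf7, and the lowest of 3, Irf1, Irf3 and Irf5. WT replicate 1 held the highest value of 0 members. Of all genes tested, 22.1% were highest and 22.5% lowest in p53R248W/+ replicate 2, and 27.6% and 26.9% in p53R248W/+ replicate 1. In WT replicate 1, 28.3% of all genes tested were highest. The summed RPKM of the 8 genes was 112 and 127 in WT and 127 and 153 in p53R248W/+. Irf4 and Irf7 made up 11.3% and 10.2% of that sum in p53R248W/+ replicate 1. The shares were 4.36% and 5.52% in WT replicate 1, 1.86% and 1.87% in WT replicate 2, and 2.59% and 5.45% in p53R248W/+ replicate 2. Both genes together were thus a larger share of the family in that library than in the other 3.

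Genes whose profile over the 4 libraries was most like that of each member were sought among tested genes with a mean of at least 5 CPM, by the root mean square difference of centred log2 CPM. The nearest were Orc1 for Irf1 (0.027), Aim2 for Irf2 (0.022), Impdh1 for Irf3 (0.031), Cryl1 for Irf8 (0.032) and Zbtb38 for Irf9 (0.019). With 4 libraries such likeness is common, and 314 genes lay within 0.1 of Irf2. The variable members had fewer near profiles, with 0 genes within 0.1 for Irf4 and Irf5 and 1 for Irf7. Their nearest genes were 1700024P16Rik for Irf4 (0.125), Igsf6 for Irf5 (0.105) and Vmn2r29 for Irf7 (0.086).

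Upstream of the Irf proteins, most interferon ligand genes had no counts, and no sensor, adaptor, kinase or ligase gene passed in either direction. Of 21 interferon genes, 19 had 0 counts in every library, among them Ifnb1, Ifng and all listed Ifna genes, where 0 counts allow up to 0.202 to 0.248 CPM by counting error. Ifnk, the only ligand gene tested, was at 0.0697 to 1.62 CPM. Of 12 tested sensors and adaptors 7 had a positive fold change (median log2 value 0.11). The most abundant were Ifih1, the sensor MDA5, at 123 to 194 CPM over the libraries, Ddx58, the sensor RIG-I, at 120 to 155 CPM, and Tmem173, the adaptor STING, at 54.9 to 73.5 CPM. Of 12 kinases and ligases 7 were positive, with a median of 0.02, or 2 of 12 when WT replicate 2 and 4 of 12 when p53R248W/+ replicate 2 was left out. The adaptor kinase Irak1, the ligase Traf6 and the Irf3 kinase Tbk1 were at 0.06 ± 0.19, 0.11 ± 0.20 and -0.28 ± 0.23 on that scale (SE).

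Downstream at the interferon receptor, 5 of 16 receptor, Jak and Stat genes had a positive fold change (median log2 value -0.12), and none passed in either direction. The positive count was 8 of 16 without either WT library. Jak1, the kinase shared by both receptors, gave 504 and 506 CPM in the WT and 685 and 547 CPM in the mutant libraries, a log2 fold change of 0.29 ± 0.15 (SE). Jak2 had a log2 fold change of -0.16 ± 0.19 (SE). Socs3, an inhibitor of cytokine signalling named here after its values were seen, gave 89.6 and 17.7 CPM for WT. The mutant libraries gave 8.77 and 11.1 CPM (unadjusted p = 0.00442, adjusted p = 0.824, edgeR quasi-likelihood test).

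Partner proteins of the Irf factors were measured too, since Irf4 and Irf8 bind DNA weakly alone. Of 11 tested partner factors and corepressors 7 were positive, with a median of 0.21, and none passed. Ikzf1, the lymphoid factor Ikaros, gave 310.1 and 408 CPM for WT, and 508 and 592 CPM for p53R248W/+, without overlap. Its log2 fold change was 0.61 ± 0.17 (SE), with an unadjusted p of 0.00199 and an adjusted p of 0.824 (edgeR quasi-likelihood test). For the stem cell factor Runx1 the log2 fold change was -0.12 ± 0.15, and for the corepressor Irf2bp2 it was 0.19 ± 0.18 (SE). Batf3, the partner of Irf8 in conventional dendritic cells, had 0 counts in every library.

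No target gene of ISGF3 and Irf7 passed. Of 27 tested, 17 had a positive fold change (median log2 value 0.11), or 12 of 27 without p53R248W/+ replicate 2. Their libraries did not overlap for 9 of 27 (33.3%), 7 higher and 2 lower. Of all genes tested, 33.6% did not overlap, 16.9% higher and 16.6% lower. Ifitm3, which blocks virus entry, gave 352 and 338 CPM for WT, and 277 and 301 CPM for p53R248W/+. Oasl2 gave 219 and 267 against 226 and 290 CPM, and Samd9l 173 and 225 against 264 and 238 CPM. Ifitm3 was thus lower and Samd9l higher in both mutant libraries, and Oasl2 overlapped between genotypes. The part of Irf7 in these values was not tested. Isg15, a ubiquitin-like interferon-induced gene named after its values were seen, gave 1.88 and 1.47 CPM for WT, and 10.6 and 2.73 CPM for p53R248W/+ (2.06 ± 1.00 on the log2 scale, SE). Its unadjusted p was 0.0535 and its adjusted p 0.824 (edgeR quasi-likelihood test). The fold change was negative for 10 of the 27 targets. Among them, also named after their values, were Ifit3 at -1.10 ± 1.03 and Ifit2 at -0.58 ± 0.41 on the log2 scale (SE).

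Irf1 targets act in antigen presentation and cell-autonomous immunity. Of 21 such genes 12 were positive, with a median of 0.02, and none passed. The positive count was 7 of 21 without WT replicate 1 and 16 of 21 without WT replicate 2. B2m, the light chain of MHC class I, gave 2968 and 3780 CPM for WT, and 3859 and 4025 CPM for p53R248W/+ (0.22 ± 0.12, SE). The guanylate-binding protein gene Gbp7 had a log2 fold change of 0.02 ± 0.18 and Nlrc5, the transactivator of MHC class I genes, of 0.21 ± 0.24 (SE).

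Irf8 targets of monocytes and dendritic cells were positive in 12 of 17 cases, at a median of 0.39, and none passed. Libraries did not overlap for 9 of 17, 5 higher and 4 lower, where 16.9% of all genes tested were higher and 16.6% lower without overlap. Cd74, the MHC class II invariant chain, gave 60.5 and 332 CPM for WT, and 184 and 189 CPM for p53R248W/+. The protease inhibitor Cst3 gave 126 and 75.0 against 65.6 and 70.9 CPM. Cd180, a Toll-like receptor homologue, gave 34.9 and 50.01 CPM for WT, and 78.3 and 78.7 CPM for p53R248W/+ (0.89 ± 0.31 on the log2 scale, SE; adjusted p = 0.824, edgeR quasi-likelihood test). With Cd180, the genes at an unadjusted p under 0.05 were Mpeg1, Ctss and Zbtb46, named after their values were seen, 4 of 17 in all against 5.87% of all genes. All 4 had a positive fold change. Mpeg1, a pore-forming protein of macrophages, gave 20.7 and 32.5 against 48.0 and 66.3 CPM. Klf4, also named after its values were seen, went the other way without overlap. It gave 49.9 and 31.0 CPM for WT, and 16.4 and 27.3 CPM for p53R248W/+ (unadjusted p = 0.0510, adjusted p = 0.824, edgeR quasi-likelihood test). The count of positive genes was 9 of 17 without either p53R248W/+ library.

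Dendritic cell markers were given beside these values. The summed level of 7 conventional dendritic cell markers, which include the progenitor gene Flt3, was 151 and 161 CPM for WT, and 212 and 273 CPM for p53R248W/+. Flt3 made up most of the sum in 3 libraries, and the other 6 markers gave 34.4 and 54.4 CPM for WT and 106 and 53.9 CPM for p53R248W/+, with p53R248W/+ replicate 2 just under WT replicate 2. The summed level of 8 plasmacytoid markers, most of it Tcf4, was 258 and 241 CPM against 307 and 339 CPM. Without Tcf4, the other 7 markers gave 9.90 and 8.49 CPM for WT and 19.3 and 13.0 CPM for p53R248W/+. Siglech, the defining surface gene of plasmacytoid cells, was at 0 to 0.209 CPM, and Cd209a at 0 to 0.0697 CPM. Other markers were detected. Clec9a gave 32.8 and 49.3 CPM for WT, and 89.2 and 40.6 CPM for p53R248W/+. Ccr7 gave 0.0697 and 1.40 against 11.3 and 5.37 CPM. These genes were named after their values were seen. Positive fold changes were found for 4 of 5 tested conventional and 4 of 4 tested plasmacytoid markers, and none passed. The part of these cell types in the Irf4, Irf7 and Irf8 values was not tested.

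**Figure D4:**
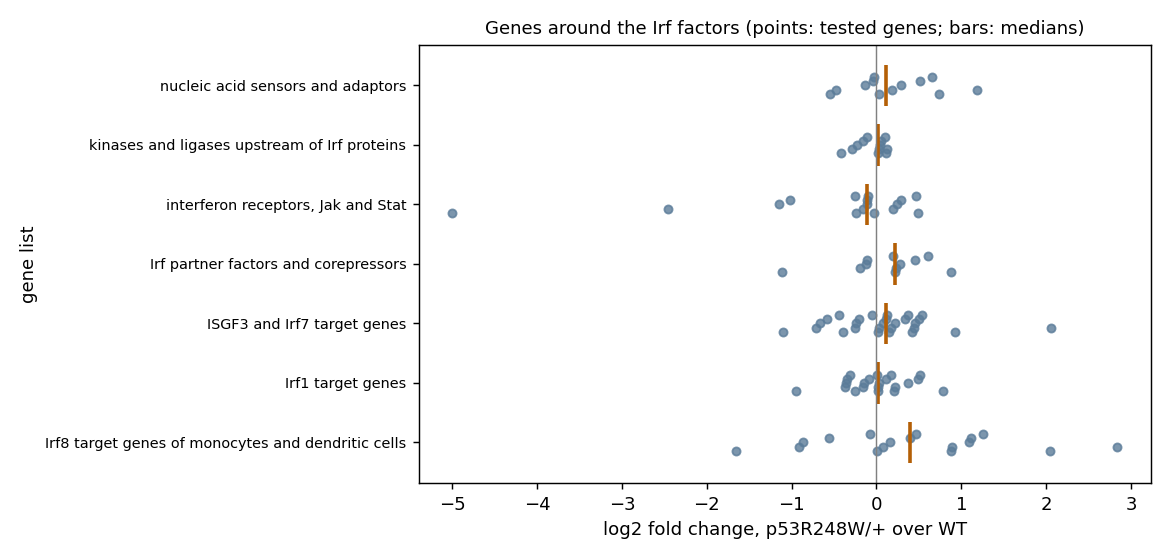
Log2 fold change of p53R248W/+ over WT for the tested genes of 7 lists around the Irf factors, with 1 point per gene and bars at the medians. The medians lie between -0.12 and 0.39, and the leftmost point is Socs1, which had 0 and 2 counts in the p53R248W/+ libraries.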

How the data were processed

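The deposited table holds raw read counts per gene, made by the authors, with exon coordinates and exon length in bases (other columns of the deposited file). Per the submitters' processing notes, STAR 2.7.10a, featureCounts from Subread 2.0.3, FastQC 0.11.5, edgeR 3.40.2 and the build mm10 were used. Strand setting and treatment of multiply aligned reads are not given in the sources used here. Columns were matched to samples by genotype and number. Genes were filtered with filterByExpr (minimum count 10, minimum total 15), scaled by TMM and compared over all 13296 genes left with edgeR 4.0.16 (glmQLFit with robust=TRUE and legacy=FALSE, glmQLFTest; R 4.3.3), genotype being the only term. The threshold was an adjusted p of 0.05, and 3 counts were the floor. The test was tried on simulated data. SE is the fold change divided by the square root of F. The members and lists were chosen with earlier results of these data known, and lists were given no test. Named were the 8 members, the 3 most abundant tested genes of each pathway list, the nearest profile of each member and markers, and other genes are said to be chosen after their values. Some genes that this rule names are not reported here. Alternatives were other scalings, DESeq2 1.42.0, limma-voom (limma 3.58.1), other filters, a replicate block, the legacy method (added after the data were seen) and each library left out.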

Additional observations from a re-analysis of the deposited data

How the results depend on the processing

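The number of genes called was 0 with all 4 libraries and 6 with DESeq2, and 0 to 1 when each library was left out, the 1 being Usp33 without p53R248W/+ replicate 2. No Irf gene was called under any of the 12 alternatives, and the smallest adjusted p of a member among them was 0.697, for Irf4 without WT replicate 2. Irf4, Irf7 and Irf9 kept a positive log2 fold change under all 12. Signs turned for 5 members. With limma-voom Irf5 was at -0.044. Over the fits that each left out 1 library, the log2 fold change ran from -0.58 to 0.25 for Irf1 (positive without WT replicate 2 or p53R248W/+ replicate 1) and from -0.024 (without WT replicate 1) to 0.39 for Irf2. It ran from -0.58 to 0.20 (without p53R248W/+ replicate 1) for Irf3, from -1.04 (without p53R248W/+ replicate 2) to 1.13 for Irf5 and from -0.022 (without WT replicate 2) to 0.77 for Irf8. With the replicate number as a block, 0 genes were called and no member changed sign, with Irf4 at 1.29 and Irf7 at 1.32. The labels do not say that a number pairs libraries, and deviations of libraries with equal numbers correlated at -0.0074 across genes. The biological coefficient of variation, whose spread between libraries may be technical, was 46% as a common value over all genes. By gene it ran from 21.5% for Irf2 to 65.3% for Irf5 among the members. With 2 libraries per genotype, the 95% intervals of the members span from 1.17 log2 units for Irf2 to 3.62 for Irf5. Scaling by median ratio or by total counts moved no member across 0.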
